A study of Pinus armandii with 6 samples.

Results

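GRAS, TCP and SBP proteins are 3 families of plant transcription factors, and their transcripts were followed here in maturing pine kernels. Members were the unigenes (assembled transcript sequences) whose deposited transcription factor family is GRAS (17), TCP (12) or SBP (8), which makes 37 of 755 unigenes with any such family and of 65117 unigenes in all. The kernels came from Pinus armandii, the Chinese white pine, whose cones were picked late in August or late in September, with 3 libraries sequenced per month. A kernel holds the embryo within the megagametophyte, the storage tissue of a conifer seed. In the labels, replication within each month is described as biological. No cultivar, treatment or tree is named there. Whether the replicates came from separate trees, cones or pools of seed is not stated either. The p-values therefore weigh the difference between months only against the spread among these libraries, and that spread may be partly technical.

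GRAS proteins share a conserved C-terminal region and mostly act by binding other transcription factors. Among them, DELLA proteins restrain growth until gibberellin triggers their breakdown, SHORT-ROOT and SCARECROW pattern root and leaf tissues, and HAM proteins keep meristems undifferentiated. TCP proteins bind DNA through a basic helix-loop-helix-like domain. Class I members are largely tied to growth and cell proliferation, and CIN-type members of class II limit proliferation in leaves. SBP proteins bind DNA through a zinc-finger domain, and in Arabidopsis many of them, called SPL, are held low by the microRNA miR156 until the plant matures. In what follows, a name is that of the deposited symbol, which marks resemblance and not identity.

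The family label was compared with the symbols of the members only. All 34 members with a symbol carry a name of their own family, and the other 3, all labelled TCP, have neither a symbol nor a database hit. The family column is not complete. It leaves out SPL13A (Unigene0053665) and SPL2 (Unigene0057599), which share the best hit of the SBP member SPL17. The SBP counts and sums below do not include them. Of the members, 27 have a best hit in a gymnosperm. The lengths implied by the ratio of count to FPKM ran from 890 to 6164 bases, with medians of 3108 bases for GRAS, 1942.5 for TCP and 2979 for SBP. Total counts per library were 12849649 to 17379628. The tissue label was checked too: storage proteins and oil body proteins summed to 5560 to 5978 CPM (each count relative to its library's total over tested unigenes) in August and 5517 to 6474 CPM in September, over 14 unigenes, of which 6 were higher and 2 lower among 11 tested. That sum hid opposite moves of abundant members. The At4g25140 unigene (Unigene0045277) fell from 2096 ± 94.99 to 768 ± 47.5 CPM (SD, n = 3 each). COS-1 (Unigene0000942) rose from 2271 ± 369.5 to 3255 ± 503 CPM. Embryo markers (VP1, ABI3, PLT1, WOX2 and WOX8, 11 unigenes) summed to 352 to 380.2 CPM in August and 459.5 to 492 CPM in September, with WOX2 under 0.22 CPM in both months on average. Of 9 tested embryo unigenes, 3 were higher and 3 lower in September, so the rise of their sum was not shared by all. Over all tested unigenes, 35.4% were higher and 32.5% lower, and the embryo counts are near those shares. In a whole kernel, fewer cells of a type and less RNA per cell cannot be told apart, and the part of a changing share of embryo in the results was not tested. Seed coat and vascular genes (34 unigenes) ranged from 2028 to 2124 CPM in August and from 2061 to 2268 CPM in September, and green-tissue genes (10 unigenes) from 125 to 154 CPM and from 130.2 to 159.7 CPM. Unigenes with hits in 7 genera listed as non-plant summed to 113 to 215 CPM in August and 60.4 to 82.9 CPM in September, and 0 members had such a hit. Of 50 such unigenes tested, 10 were higher and 33 lower in September (median log2 fold change, September over August, -2.55).

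Between the harvests, more members of each family rose than fell. In the edgeR quasi-likelihood test over 23216 unigenes, 10 of 17 GRAS unigenes rose from August to September, 3 fell and 4 missed the threshold (adjusted p of 0.05). Of 10 tested TCP unigenes 5 rose, 1 fell and 4 missed the threshold, and the 2 TCP unigenes left out of the test had too few counts. Among the 8 SBP unigenes 6 rose, 1 fell and 1 missed the threshold. The background was high, since 67.8% of all tested unigenes passed, 35.4% as higher and 32.5% as lower. Against that, 58.8% of tested GRAS, 50% of tested TCP and 75% of tested SBP unigenes were higher. Of the 596 tested unigenes of any transcription factor family, 72.3% passed, 33.4% as higher and 38.9% as lower. The median log2 fold change (September over August) was 0.70 in GRAS, 0.46 in TCP and 0.80 in SBP, beside 0.03 over all tested unigenes and -0.06 over all transcription factor unigenes. These counts and medians describe 35 unigenes and were not tested as sets.

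Larger changes were nearly all rises. At 2-fold or more, 13 members were higher (6 GRAS, 4 TCP, 3 SBP) and 2 lower (PAT1 of the GRAS family and a TCP unigene without a symbol), where 24.3% of all tested unigenes were higher by that much and 12.4% lower. The libraries of the months did not overlap in 26 of the 37 members, 21 with every September library above every August library and 5 the other way round; both untested TCP unigenes overlapped. That figure was 72.9% over all tested unigenes, 37.8% with September above and 35% with August above.

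**Figure D1:**
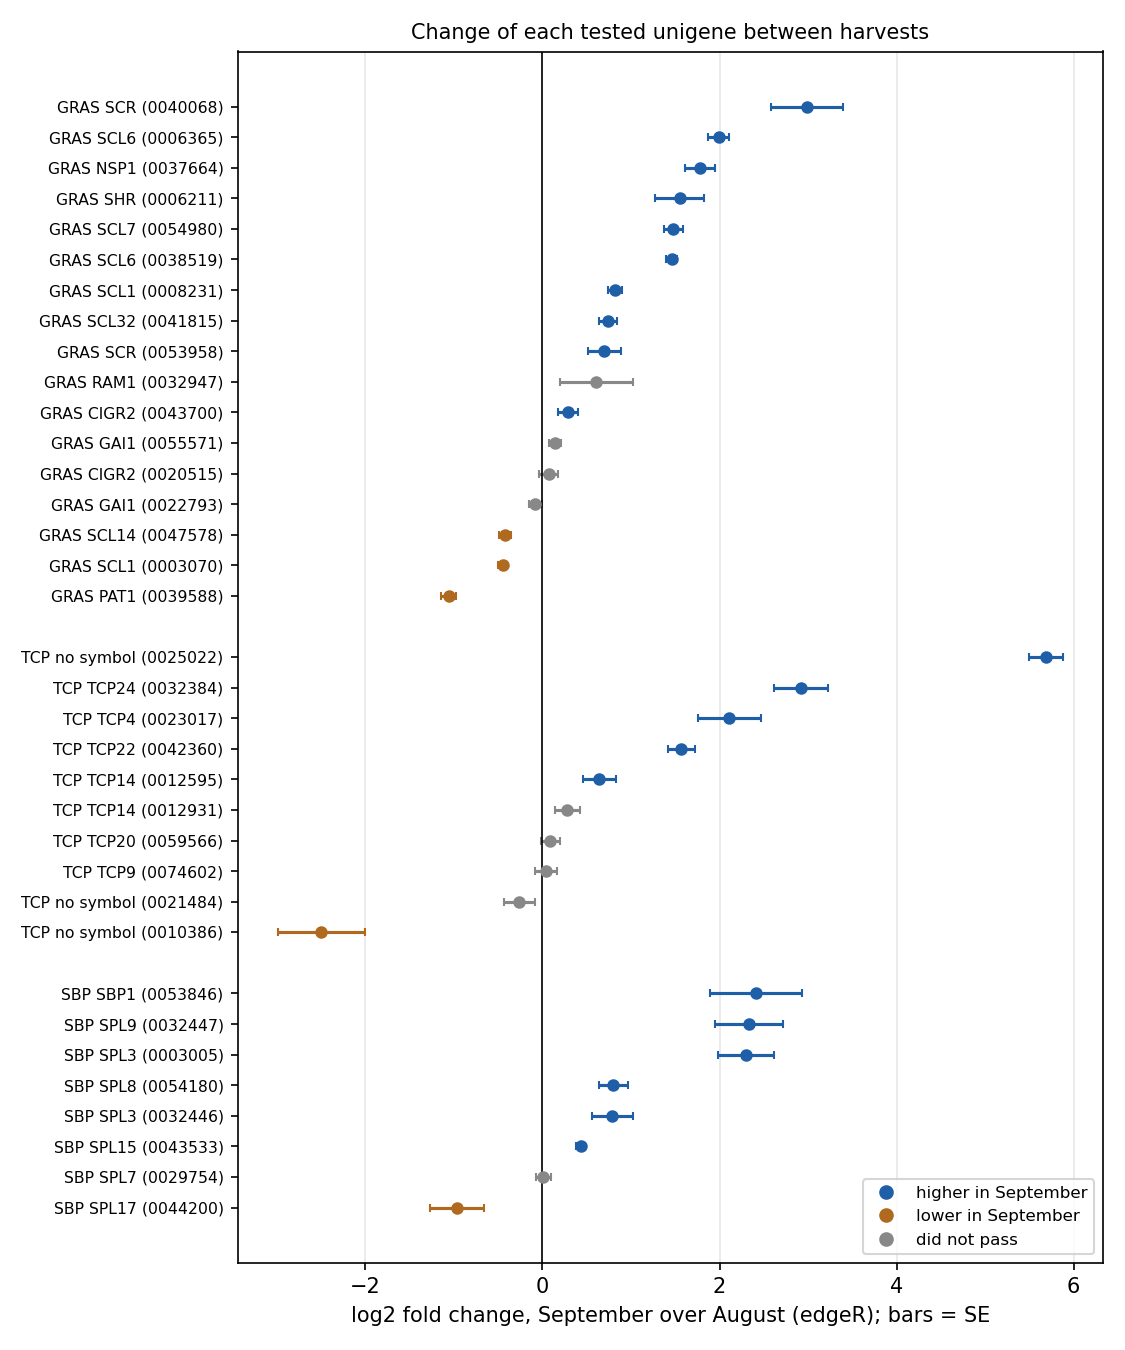
Log2 fold change of each of the 35 tested unigenes between harvests (x axis, September over August; bars are 1 SE), grouped by family and labelled with the symbol and the number of the unigene. The 21 higher members reach 5.69, the 5 lower ones reach -2.5, and the 9 grey ones did not pass.

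GRAS was the most abundant of these families per length. Its summed level was 403 to 424 FPKM (the authors' values, fragments relative to transcript length and library size) in the August libraries and 479.7 to 506 FPKM in the September libraries, a ratio of 1.18. The sum hid a change of makeup. An SCL1 unigene (Unigene0003070) held 49.5% ± 1.02 of the family's FPKM in August and 30.7% ± 1.53 in September (SD, n = 3 each). Without it, the other 16 GRAS unigenes went from 209 ± 6.91 to 339 ± 16.4 FPKM, a ratio of 1.62. TCP unigenes summed to 34.7 to 39.8 FPKM in August and 63.4 to 71.6 FPKM in September, and SBP unigenes to 45.2 to 52.5 FPKM and 62.4 to 63.8 FPKM. For all 3 families, every September library was above every August library.

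**Figure D2:**
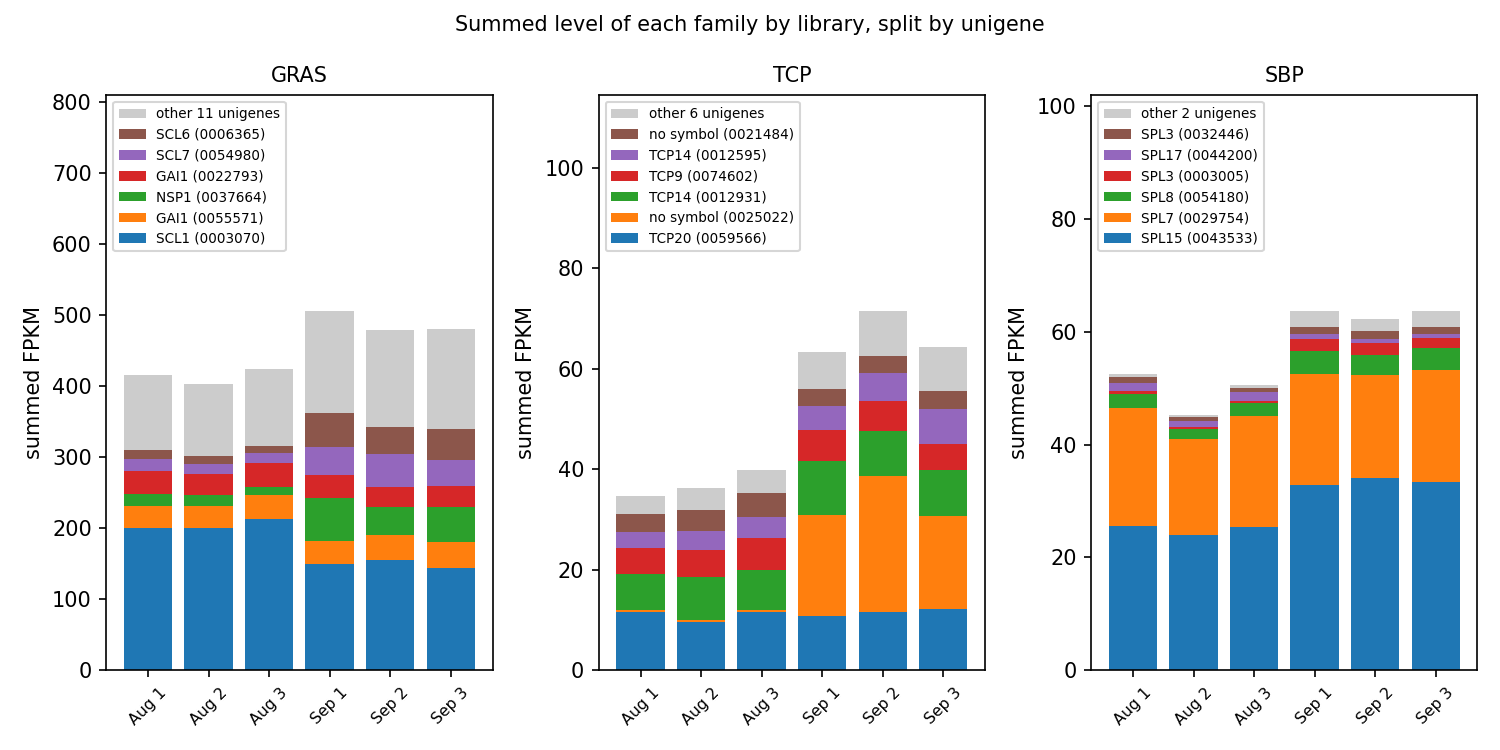
Summed FPKM of each family in each library (bars start at 0), split into the 6 most abundant unigenes and the rest. In GRAS the SCL1 segment shrinks from 49.5% to 30.7% of the sum, in TCP a unigene without a symbol (Unigene0025022) grows in September, and in SBP SPL15 and SPL7 hold most of the sum in both months.

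Neither DELLA unigene passed the test, although the one with the RGA hit passed in the fit with same-hit unigenes summed (log2 fold change 0.17, edgeR adjusted p = 0.0484). The symbol of both is GAI1, after the Arabidopsis repressor of gibberellin responses, and their best hits are the Pinus tabuliformis proteins named RGA and DPL. The unigene with the RGA hit (Unigene0055571) was at 90.3, 91.1 and 99.97 CPM in August and at 96.8, 104 and 109.5 CPM in September. The unigene with the DPL hit (Unigene0022793) was at 117, 109 and 121 CPM in August and at 117, 102 and 109.5 CPM in September. The months overlapped for both. Their log2 fold changes were 0.14 (SE 0.0701, edgeR adjusted p = 0.0971) and -0.08 (SE 0.0705, edgeR adjusted p = 0.357), with 95% intervals of -0.01 to 0.30 and -0.23 to 0.08. Summed, they gave 63.9 ± 3.59 FPKM in August and 65.3 ± 1.54 FPKM in September (SD, n = 3 each).

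Calls among genes that make or sense gibberellin went in both directions, with shares near those over all tested unigenes (67.8% called, 35.4% higher and 32.5% lower). Of 5 unigenes for gibberellin synthesis and turnover, 2 were higher, 2 lower and 1 did not pass, with a median log2 fold change of 0.77; DESeq2 and 5 other settings called 1 lower. KAO2 (Unigene0058923), an ent-kaurenoic acid oxidase of gibberellin synthesis, rose from 18.8 ± 1.62 to 89.01 ± 4.36 CPM (log2 fold change 2.25, SE 0.0858, edgeR adjusted p = 4.32e-08). A GA20ox1B unigene (Unigene0011995), which resembles oxidases of the late steps of synthesis, rose from 9.89 ± 2.496 to 28.7 ± 2.67 CPM. The GA20OX1 unigene Unigene0001273, of the same kind, was lower in September, at 1.89 ± 0.8299 and then 0.683 ± 0.431 CPM (log2 fold change -1.44, edgeR adjusted p = 0.0311), with overlapping months and no call by DESeq2 (adjusted p = 0.0729). GA2OX1 (Unigene0044284), named after the oxidases that inactivate gibberellin, fell from 53.3 ± 1.63 to 27.7 ± 4.25 CPM. In gibberellin perception, 3 of 8 tested unigenes were higher, 3 lower and 2 did not pass (median 0.29; 10 unigenes in the list), and 5 were higher without the second August library. The more abundant GID1C unigene (Unigene0059676), a gibberellin receptor, fell from 86.3 ± 7.46 to 35.1 ± 4.26 CPM, and the F-box unigene GID2 (Unigene0069169), of the kind that marks DELLA proteins for breakdown, fell from 12.4 ± 1.32 to 4.38 ± 1.37 CPM. Another GID2 unigene (Unigene0061348) rose from 8.23 ± 1.86 to 17.8 ± 4.62 CPM.

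Both SCL6 unigenes rose, and so did NSP1. SCL6 belongs to the HAM branch, whose Arabidopsis members are targets of the microRNA miR171, and the best hits of these unigenes are the Pinus tabuliformis proteins HAM1 and HAM2. The HAM2-like unigene (Unigene0006365) was at 38.7, 33.1 and 29.2 CPM in August and at 150.3, 116 and 135 CPM in September (log2 fold change 1.99, SE 0.1198, edgeR adjusted p = 5.11e-07). The HAM1-like unigene (Unigene0038519) was at 49.3, 44.4 and 48.1 CPM in August and at 132, 127 and 132 CPM in September (log2 fold change 1.46, SE 0.0645, edgeR adjusted p = 9.78e-08). Neither pair of months overlapped. The HAM2-like unigene was the lower of these in every August library, and in September their levels overlapped: their log2 ratio moved from -0.5 ± 0.198 to 0.03 ± 0.157 (SD, n = 3 each; exact two-sided permutation p = 0.1, the smallest that 20 orderings allow). Per length, the HAM unigenes together went from 25.05 ± 1.904 to 81.9 ± 5.92 FPKM, a ratio of 3.27, and stood below the DELLA sum in August and above it in September.

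NSP1 takes its name from a legume protein needed for root nodule signalling, and the best hit of this unigene (Unigene0037664) is a scarecrow-like protein of larch. It was at 34.7, 30.9 and 23.4 CPM in August and at 125, 80.9 and 99.9 CPM in September. Every September library was more than 2-fold above every August library, and the log2 fold change was 1.78 (SE 0.173, edgeR adjusted p = 1.16e-05). Its share of the family's FPKM went from 3.496% ± 0.705 to 10.1% ± 1.88. RAM1 (Unigene0032947), named after a regulator of arbuscular mycorrhiza in legumes, was low, at 1.68, 0.8896 and 2.35 CPM in August and 3.68, 1.79 and 2.13 CPM in September, and did not pass (edgeR adjusted p = 0.211). Of the listed symbiosis genes, the 2 found were RAM2 unigenes, glycerol-3-phosphate acyltransferases by resemblance, of which 1 was higher and 1 lower. RAM2 Unigene0014699 rose from 44.9 ± 5.92 to 73.1 ± 4.805 CPM, and RAM2 Unigene0044008 fell from 32.5 ± 1.18 to 23.8 ± 2.74 CPM. Their best hits are in the moss genera Physcomitrium and Ceratodon. Over all tested unigenes 35.4% were higher and 32.5% lower.

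The SCARECROW and SHORT-ROOT unigenes were low and all 3 rose. SCR (Unigene0053958), whose best hit is the SCARECROW protein of Scots pine, was at 11.5, 7.56 and 10.2 CPM in August and at 15.3, 13.7 and 19.0 CPM in September (log2 fold change 0.70, SE 0.182, edgeR adjusted p = 0.00618). A second SCR unigene (Unigene0040068) had 6, 4 and 3 counts in August and 27, 40 and 37 in September, or 0.287 ± 0.0922 and 2.35 ± 0.541 CPM (log2 fold change 2.99, SE 0.408). This was the largest fold of the GRAS family, at one of its lowest levels. SHR (Unigene0006211) was at 4.99, 2.45 and 3.62 CPM in August and at 9.53, 8.87 and 14.3 CPM in September (log2 fold change 1.55, SE 0.275, edgeR adjusted p = 6.36e-04). The months did not overlap for any of them. Together they went from 4.96 ± 1.21 to 10.96 ± 2.29 FPKM. Of the indeterminate-domain zinc fingers, which bind SCARECROW and DELLA proteins in Arabidopsis, 0 of 3 tested unigenes were higher and 1 was lower (median -0.18). Over all tested unigenes 35.4% were higher and 32.5% lower, and so few unigenes cannot be told from those shares. The lower one was MGP (Unigene0004722), which fell from 183 ± 23.2 to 128 ± 8.31 CPM.

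PAT1-branch unigenes, named after a phytochrome A signalling protein of Arabidopsis, moved apart from each other: 2 were higher, 2 lower and 1 did not pass. The abundant SCL1 unigene (Unigene0003070) fell, from 665, 667 and 699.8 CPM to 497, 512 and 481 CPM (log2 fold change -0.45, SE 0.0533, edgeR adjusted p = 4.61e-05). The other SCL1 unigene (Unigene0008231) rose, from 58.95, 49.2 and 54.5 CPM to 102, 92.5 and 91.7 CPM (log2 fold change 0.82, SE 0.0818, edgeR adjusted p = 1.45e-05). Their log2 ratio went from 3.65 ± 0.135 to 2.38 ± 0.0949 and did not overlap between months (exact two-sided permutation p = 0.1, the smallest possible).

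PAT1 itself (Unigene0039588) had the largest fall of the GRAS family, from 39.5, 44.1 and 39.8 CPM to 18.9, 19.99 and 20.3 CPM (log2 fold change -1.06, SE 0.0883, edgeR adjusted p = 4.24e-06). It shares its best hit, SCL10 of Monterey pine, with both CIGR2 unigenes. Whether these unigenes hold near-identical stretches, between which reads could be divided, was not tested. CIGR2 is named after rice proteins induced by chitin and gibberellin. Unigene0043700 was at 23.5, 23.6 and 27.6 CPM in August and at 29.9, 34.1 and 27.2 CPM in September, with overlapping months, and lay just inside the threshold (log2 fold change 0.29, SE 0.113, edgeR adjusted p = 0.0414). Its call was lost in 8 of 12 alternative settings. Unigene0020515 was at 51.1 ± 3.09 and 53.5 ± 8.56 CPM and did not pass (edgeR adjusted p = 0.608). Summed over the 3 unigenes, the level went from 117 ± 2.06 to 104 ± 7.73 CPM (log2 fold change -0.14, edgeR adjusted p = 0.0752), so the fall of PAT1 was not a call for the sum.

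Of the remaining GRAS unigenes, SCL7 and SCL32 rose and SCL14 fell. SCL7 (Unigene0054980), whose best hit is a Monterey pine protein deposited as PIN2, was at 53.8, 45.1 and 43.95 CPM in August and at 128, 149.8 and 120.1 CPM in September (log2 fold change 1.48, SE 0.103, edgeR adjusted p = 1.29e-06). SCL32 (Unigene0041815) went from 25.8 ± 1.17 to 43.2 ± 4.65 CPM. SCL14 (Unigene0047578), whose Arabidopsis namesake activates detoxification genes together with TGA factors, went from 103 ± 6.898 to 76.98 ± 2.75 CPM (log2 fold change -0.42, SE 0.0681). The months did not overlap for any of these.

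**Figure D3:**
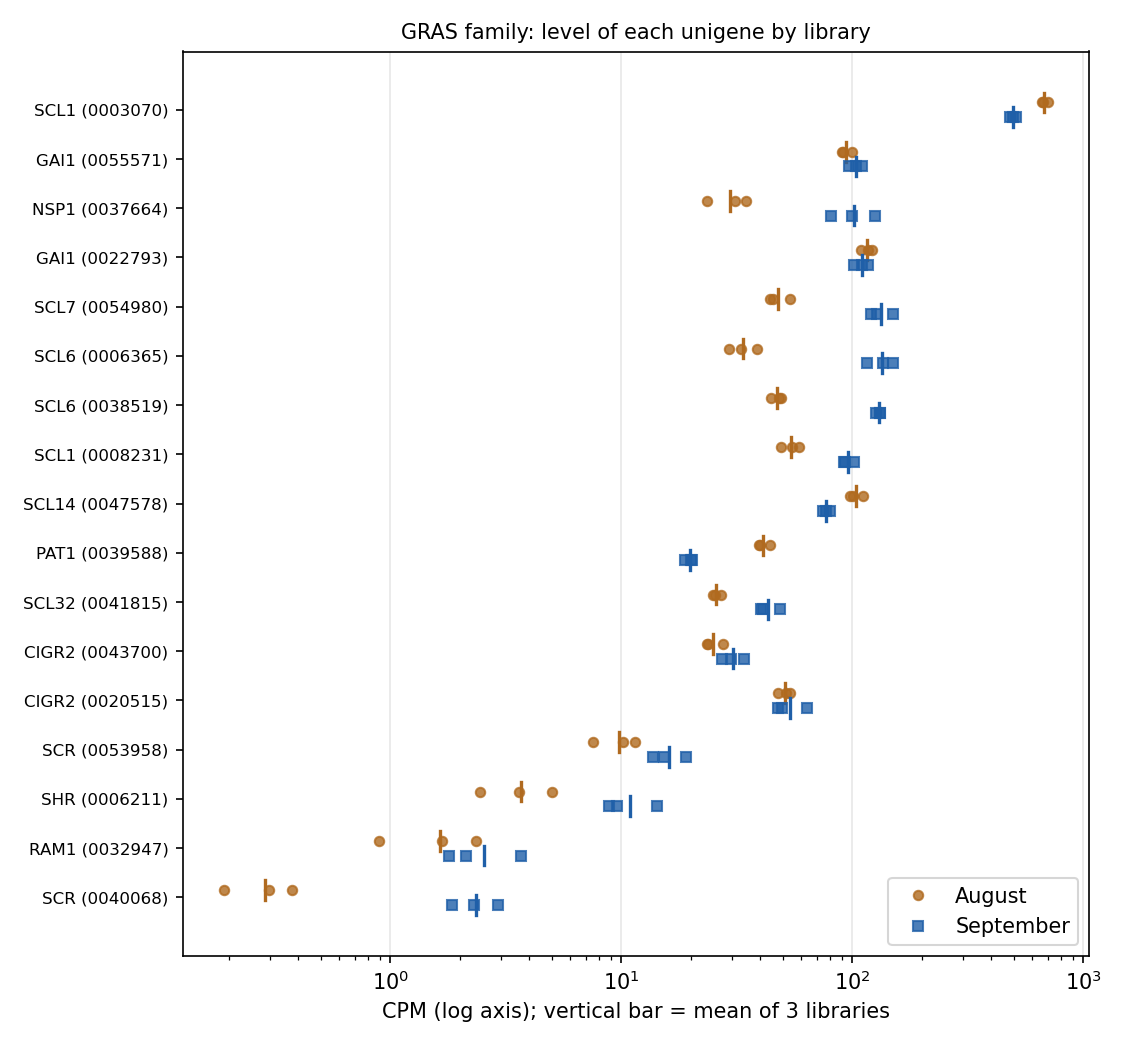
Level of each of the 17 GRAS unigenes in every library (x axis, CPM on a log axis; circles August, squares September, vertical bars the mean of 3 libraries), ordered by mean FPKM. The GAI1 pair overlaps between months, both SCL6 unigenes, NSP1 and SCL7 lie higher in September, and the top SCL1 unigene, SCL14 and PAT1 lie lower.

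In the TCP family the largest change belonged to a unigene with no database hit. Unigene0025022, which is known as TCP only from the deposited family column, was at 1.12, 1.11 and 1.02 CPM in August and at 51.8, 68.7 and 47.9 CPM in September. It had 18, 15 and 16 counts in August and 761, 1192 and 608 in September. Its log2 fold change was 5.69 (SE 0.193, edgeR adjusted p = 2.37e-08), or 51.6-fold, which ranked 6 among the 596 transcription factor unigenes and 497 among all 23216. From 0.424 ± 0.0212 FPKM in August it became the most abundant TCP unigene, at 21.9 ± 4.45 FPKM. It held 32.8% ± 4.46 of the family's FPKM in September. Without it the TCP sum went from 36.5 ± 2.64 to 44.5 ± 1.27 FPKM, a ratio of 1.22 in place of 1.799.

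The other TCP unigenes without a hit did not rise. Unigene0010386 fell from 1.31, 2.97 and 3.75 CPM to 0.545, 0.576 and 0.237 CPM (log2 fold change -2.50, SE 0.493, edgeR adjusted p = 0.00122), on 3 to 59 counts per library. Unigene0021484 was at 6.64 ± 0.941 CPM, then 5.54 ± 0.187 CPM, and did not pass (edgeR adjusted p = 0.219).

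Both tested CIN-type unigenes rose. Over all tested unigenes 35.4% were higher, and 2 unigenes are too few to compare with that share or with class I. TCP4 limits cell proliferation in Arabidopsis leaves and, like TCP24, is a target of the microRNA miR319 there. TCP24 (Unigene0032384), with a Pinus tabuliformis best hit, was at 0.686, 0.593 and 0.953 CPM in August and at 4.49, 5.82 and 6.86 CPM in September (log2 fold change 2.92, SE 0.303, edgeR adjusted p = 1.82e-05). TCP4 (Unigene0023017) was at 0.437, 0.741 and 0.572 CPM in August and at 2.38, 2.07 and 3.15 CPM in September (log2 fold change 2.11, SE 0.357, edgeR adjusted p = 4.62e-04). No August library reached a September library for either, and their counts were 7 to 15 in August and 35 to 101 in September. TCP13 (Unigene0032964), also of this type, had 0 to 11 counts per library and was not tested.

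Of 5 tested class I TCP unigenes, 2 were higher and 3 did not pass. Over all tested unigenes 67.8% passed, and so few unigenes cannot be told from that share. TCP20 (Unigene0059566), whose Arabidopsis namesake binds promoters of growth genes, was at 25.02, 20.8 and 24.96 CPM in August and at 23.4, 25.1 and 26.6 CPM in September (log2 fold change 0.09, 95% interval -0.16 to 0.33, edgeR adjusted p = 0.501). TCP9 (Unigene0074602) was at 18.6 ± 2.08 and 19.1 ± 1.69 CPM (edgeR adjusted p = 0.805). PCF2 (Unigene0053716), which shares its best hit with TCP9, had 3 to 14 counts per library and was not tested. TCP22 (Unigene0042360) passed and rose from 3.99, 4.08 and 3.49 CPM to 11.7, 11.9 and 10.8 CPM (log2 fold change 1.57, SE 0.157, edgeR adjusted p = 1.38e-05).

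TCP14 promotes embryo growth during germination in Arabidopsis, and 2 unigenes here carry its name and the same best hit. Unigene0012595 went from 5.61, 6.598 and 6.99 CPM to 8.17, 9.74 and 12.1 CPM and passed as the TCP unigene nearest inside the threshold (log2 fold change 0.64, SE 0.185, edgeR adjusted p = 0.0108), though not without the third September library (0.49, edgeR adjusted p = 0.0529). Unigene0012931 was at 10.1 ± 0.938 and 12.3 ± 1.31 CPM and was the nearest outside (log2 fold change 0.28, SE 0.142, edgeR adjusted p = 0.0996). Summed with another unigene of that hit (Unigene0073000, in no family), they went from 29.5 ± 2.29 to 36.1 ± 1.49 CPM (log2 fold change 0.32, SE 0.0889, edgeR adjusted p = 0.00839). Class I unigenes together were at 29.8 ± 1.55 FPKM in August and 37.2 ± 0.391 FPKM in September, and CIN-type unigenes at 0.833 ± 0.259 and 3.56 ± 0.888 FPKM.

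Genes of kinds that act with or below TCP proteins in Arabidopsis (PCNA, CYCB1, BRM, AS2 and CUC-like, 16 unigenes) gave calls in both directions. Of 10 tested, 3 were higher (1 by DESeq2), 4 lower and 3 did not pass (median -0.11), beside 35.4% higher and 32.5% lower over all tested unigenes. The summed level of the list went from 400.2 ± 13.6 to 348 ± 1.71 CPM. Its abundant passing members fell: AS2 (Unigene0043941), named after a leaf polarity gene, from 154 ± 9.81 to 126 ± 2.17 CPM (edgeR adjusted p = 0.00212), and CYCB1-2 (Unigene0013655), a mitotic cyclin, from 36.04 ± 3.19 to 26.9 ± 1.08 CPM (edgeR adjusted p = 0.0026). PCNA (Unigene0061951), the DNA replication clamp, was at 0.6304 ± 0.383 and then 1.87 ± 0.248 CPM, a rise by edgeR (adjusted p = 0.0134) that DESeq2 did not call (adjusted p = 0.0549). The passing member with the largest change among those with a mean of 5 CPM or more over all 6 libraries, CYCB1-5 (Unigene0038217), rose from 3.49 ± 0.7496 to 6.85 ± 0.599 CPM, while the CYCB1-5 unigene Unigene0051326, under that mean, fell from 6.32 ± 0.437 to 3.01 ± 0.741 CPM.

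SBP transcripts came mostly from SPL15 and SPL7. SPL15 (Unigene0043533) rose from 150.3, 141 and 148 CPM to 194, 199.5 and 198 CPM (log2 fold change 0.43, SE 0.0534, edgeR adjusted p = 6.56e-05). It held 50.7% ± 2.19 of the family's FPKM in August and 52.9% ± 1.67 in September. SPL7 (Unigene0029754), whose Arabidopsis namesake controls the response to low copper, was at 81.4, 66.9 and 76.5 CPM in August and at 77.7, 71.3 and 77.9 CPM in September, with overlapping months (log2 fold change 0.01, 95% interval -0.17 to 0.20, edgeR adjusted p = 0.909). Its share was 38.7% ± 0.981 in August and 30.4% ± 0.948 in September. COPT5 (Unigene0030518), a copper transporter by resemblance, rose from 18.6 ± 1.24 to 24.8 ± 1.31 CPM.

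The low SBP unigenes carried the larger folds. SPL3, which promotes flowering in Arabidopsis and a target of miR156 there, is the symbol of 2 unigenes. Unigene0003005 was at 1.81, 0.815 and 0.889 CPM in August and at 6.54, 5.88 and 5.12 CPM in September (log2 fold change 2.30, SE 0.321, edgeR adjusted p = 1.31e-04). Unigene0032446 went from 2.87, 2.15 and 2.16 CPM to 4.09, 4.15 and 4.26 CPM (log2 fold change 0.79, SE 0.236, edgeR adjusted p = 0.0128), a call that DESeq2 did not make (adjusted p = 0.0846) and that was lost with no filter on low counts (edgeR adjusted p = 0.0795). SPL9 (Unigene0032447), named after another miR156 target of Arabidopsis, shares the best hit of the latter and rose from 0.431 ± 0.184 to 2.24 ± 0.0543 CPM (log2 fold change 2.33, SE 0.384). With 1 more unigene of that hit, their sum went from 2.82 ± 0.505 to 6.43 ± 0.181 CPM (log2 fold change 1.21, edgeR adjusted p = 4.84e-04).

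SPL8 and SBP1 rose as well. SPL8 (Unigene0054180), which acts in anther development in Arabidopsis, was at 8.17, 5.63 and 7.43 CPM in August and at 13.1, 11.3 and 12.8 CPM in September (log2 fold change 0.80, SE 0.167, edgeR adjusted p = 0.00173). SBP1 (Unigene0053846), named after the snapdragon protein that gave the family its name, had 6, 3 and 2 counts in August and 25, 14 and 19 in September (log2 fold change 2.41, SE 0.517, edgeR adjusted p = 0.00209). The months did not overlap for either.

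SPL17 (Unigene0044200) was the only SBP unigene to pass as lower, going from 2.25, 1.85 and 2.54 CPM to 1.16, 1.27 and 0.946 CPM (log2 fold change -0.97, SE 0.305, edgeR adjusted p = 0.0169). Another unigene with its best hit, SPL13A (Unigene0053665), which the family column does not list as SBP, rose from 2.47 ± 0.684 to 4.41 ± 0.472 CPM. Summed over the 4 unigenes of that hit, the log2 fold change was 0.25 (edgeR adjusted p = 0.275), opposite in sign to that of SPL17 alone. The call was also lost, at log2 fold changes close to the first, with DESeq2 (-1.0, adjusted p = 0.107), with no filter on low counts (-1.01, edgeR adjusted p = 0.0774), and without the third August library (-0.89, edgeR adjusted p = 0.0509) or the third September library (-0.86, edgeR adjusted p = 0.0651).

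**Figure D4:**
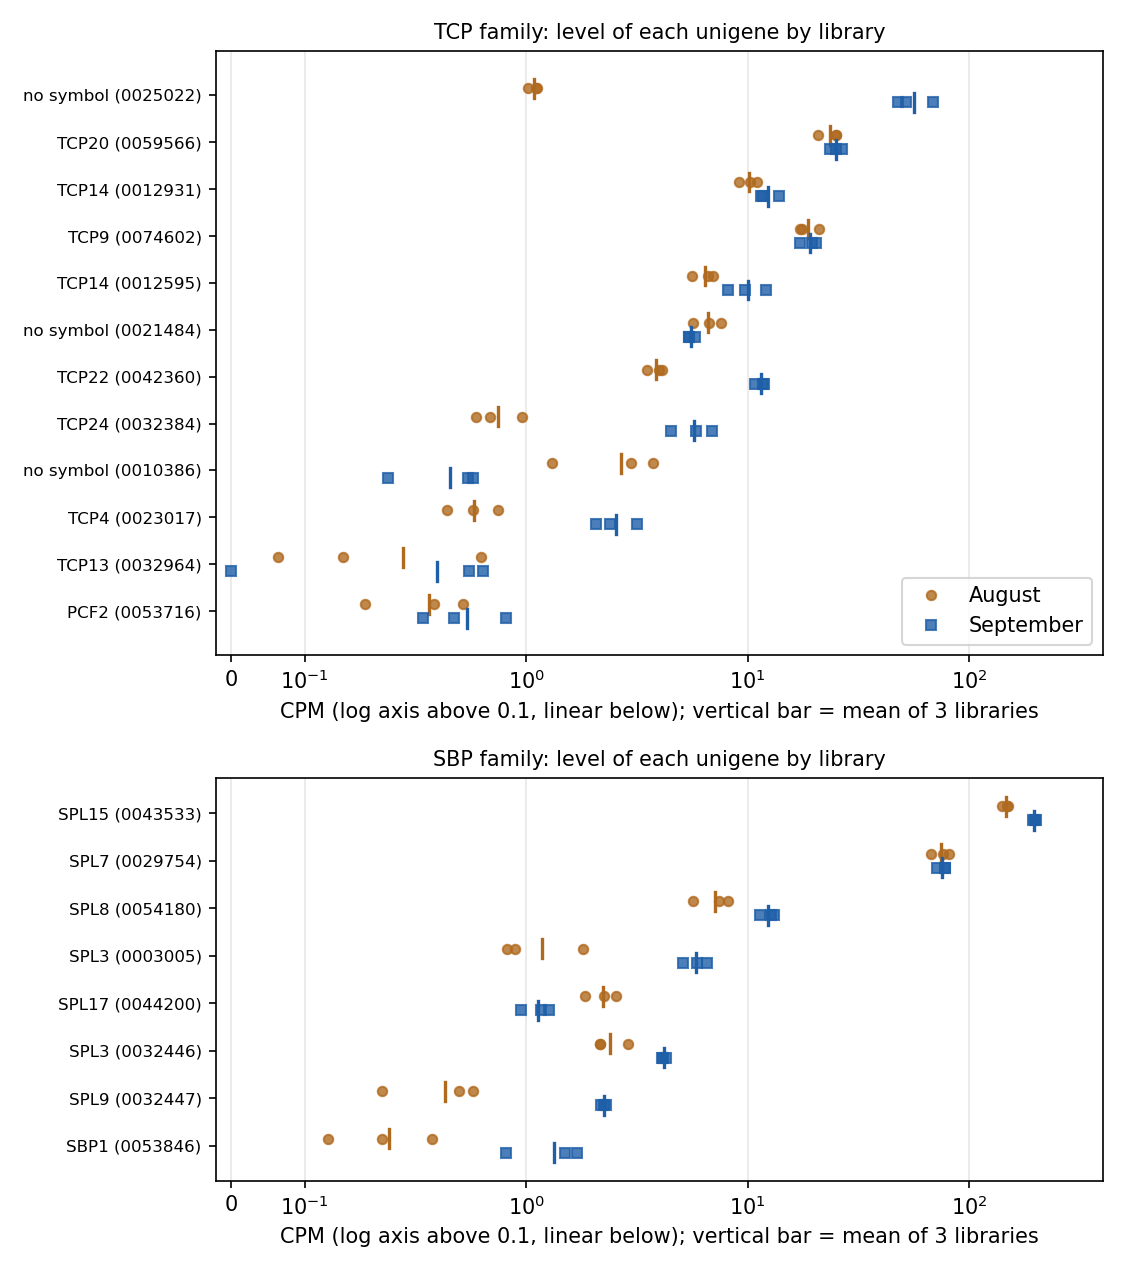
Level of each TCP (upper panel) and SBP (lower panel) unigene in every library (x axis, CPM on a log axis above 0.1 and linear below; circles August, squares September, vertical bars the mean of 3 libraries), ordered by mean FPKM. Unigene0025022 moves from about 1 CPM to 47.9 CPM or more, TCP20, TCP9 and SPL7 overlap between months, and SPL17 lies lower in September.

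MADS-box, AP2 and copper transporter genes, groups that include known targets of SBP proteins in Arabidopsis (20 unigenes, not all of them targets), gave calls in both directions, as did all tested unigenes (35.4% higher, 32.5% lower). Of 13 tested, 6 were higher (3 by DESeq2), 5 lower and 2 did not pass (median -0.18). SOC1 (Unigene0073207), a MADS-box gene that SPL proteins activate in Arabidopsis, fell from 70.8 ± 5.19 to 10.5 ± 2.16 CPM (log2 fold change -2.74, SE 0.132, edgeR adjusted p = 1.47e-07). Of the AP2 unigenes, Unigene0074427 rose from 4.27 ± 1.32 to 9.14 ± 1.74 CPM. The most abundant, Unigene0043489, was at 15.9 ± 3.77 and 14.1 ± 0.556 CPM and did not pass (edgeR adjusted p = 0.34). Unigene0025042 went from 1.01 ± 0.553 to 2.48 ± 0.321 CPM, a rise by edgeR (adjusted p = 0.02) that DESeq2 did not call (adjusted p = 0.0652). The summed level of the list went from 229 ± 3.96 to 135 ± 6.27 CPM.

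Members that share a symbol or a best hit were compared as ratios within a library. Of 10 such pairs of tested members, 7 had a log2 ratio that did not overlap between months, and each of these reached the smallest exact two-sided permutation p of 0.1 (0.143 after Benjamini-Hochberg adjustment over the 10 pairs). Levels of single unigenes did not overlap between months in 72.9% of all tested. No such share was computed for ratios of other pairs, so whether 7 of 10 is unusual for ratios cannot be told. The pairs are also not independent, since PAT1 and the CIGR2 unigenes make up 3 of them and SPL3 Unigene0032446 is in 2. Pairs without overlap include the SCR unigenes, whose log2 ratio went from 5.12 ± 0.559 to 2.78 ± 0.248, and the SPL3 unigenes, from -1.11 ± 0.393 to 0.48 ± 0.206. The GAI1, CIGR2 and TCP14 pairs overlapped, with exact permutation p of 0.3 to 0.4. With 3 libraries a month no pair could reach 0.05.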

How the data were processed

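Seed kernels were profiled by RNA sequencing in 6 libraries, 3 for each of 2 harvest months. The submitters' processing notes name fastp, a read trimmer, and RSEM, a transcript quantifier. Not given in the sources used here are versions, assembler, annotation programs and strandedness. The authors deposited estimated counts per unigene, not normalized, and FPKM values, per the file headers. Rounding to whole numbers changed 8 of 390702 counts. No genome or sequence was used, so neither positions nor sequences are given.

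The whole table was fitted with edgeR 4.0.16 in R 4.3.3 (TMM, filterByExpr by month with a minimum count of 10 and minimum total of 15, quasi-likelihood F test, Benjamini-Hochberg adjustment over 23216 unigenes, threshold 0.05). Tested unigenes held 98.6% to 99.7% of a library's counts. Each SE is the log2 fold change over the root of F, and 95% intervals use the test's degrees of freedom. CPM values use the library sizes of tested unigenes with TMM factors of 0.993 to 1.01.

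The members and gene lists were chosen with earlier results of these data known. Lists were matched on symbol (with or without a copy number) or description, leaving out homonyms such as the helicase PIF1. Within each family the text names the 3 most abundant unigenes, up to 6 largest passing rises and falls at 1 CPM or more without overlap, those nearest the threshold, and SCL6, NSP1, GAI1, SCR, SHR and SPL7. For each list it names the largest passing change at a mean of 5 CPM or more over all libraries. The other genes named were chosen after their values were seen. Alternatives were RLE factors, DESeq2 1.42.0, no filter, each library left out, a replicate block and same-hit unigenes summed. Scaling by total counts and the log2 ratios of pairs were added after seeing the data.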

Additional observations from a re-analysis of the deposited data

How the results depend on the processing

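Of 35 tested members, 24 kept their call and direction under all 12 alternatives, 21 of them past the threshold. RLE size factors or total counts in place of TMM changed 0 member calls and put the median of all tested unigenes at 0.04 and 0.02. The count of lower SBP unigenes, 1 by edgeR, was 0 with DESeq2, with no filter and with same-hit unigenes summed, and 0 to 1 when single libraries were left out. All other counts by family stayed within 1.5 times: leaving out single libraries gave 9 to 10 GRAS, 4 to 5 TCP and 6 SBP unigenes higher, and 3 GRAS and 1 TCP lower. Over all tested unigenes, no filter gave 10322 higher and 9526 lower, against 8209 and 7541.

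Signs changed for SPL7, TCP9, TCP20, SPL17 and both CIGR2 unigenes. SPL7 was at -0.02 with DESeq2, -0.03 with no filter, and between -0.08 and 0.05 without single libraries (-0.08 without August 2, -0.003 without August 3, -0.01 without September 1, -0.003 without September 3). TCP9 was at -0.01 with no filter and -0.04, -0.02 and -0.01 without August 1, August 2 and September 1, with a range of -0.04 to 0.11 without single libraries, and TCP20 at -0.02 without August 2 (range -0.02 to 0.13). With same-hit unigenes summed, both CIGR2 unigenes were at -0.14 and SPL17 at 0.25, and CIGR2 Unigene0020515 was at -0.01 and -0.07 without August 3 and September 1. In that fit GAI1 Unigene0055571, which has no partner, passed at 0.17 (edgeR adjusted p = 0.0484).

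The labels do not say whether libraries of the same replicate number are paired. Deviations from the month's mean correlated at 0.0924, 0.043 and 0.03 for same-numbered libraries. For differently numbered libraries they correlated at -0.0862 to 0.0426. These values are small and not independent of each other, so they do not settle whether the numbers pair the libraries. With the replicate block, 9 GRAS unigenes were higher, and the lost call was CIGR2 Unigene0043700 (edgeR adjusted p = 0.0624). Depth limits the low unigenes: TCP13 and PCF2, with at most 14 counts per library, were not tested.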
